A study of Homo sapiens with 20 samples.

Results

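The BCL2 family was followed in MDA-MB-468 cells, a human basal-like, triple-negative breast cancer line with amplified EGFR, through a time course of epidermal growth factor (EGF). Its 10 members were taken by gene symbol from the 60271 genes of the deposited tables. They were 3 survival members (BCL2, BCL2L1 and MCL1), 5 BH3-only members (BCL2L11, BMF, BBC3, PMAIP1 and BID) and 2 effectors (BAX and BAK1). The groups were untreated control cells (CTR) and cells given 50 ng/mL EGF, an inducer of epithelial-mesenchymal transition (EMT) in this line, for 12, 24, 48 or 72 h, with 4 biological replicates each and 20 mRNA libraries in all. All cells, CTR included, were moved to serum-free medium 24 h after seeding, and EGF was described as added after another 24 h. By the sample labels all groups were seeded and harvested together. With shared seeding and harvest, 24 h without serum before EGF cannot hold at every EGF time. The serum-free time before EGF in each group is thus not known, and its part in the results was not tested. The model is 1 cell line with 1 inducer, and the 4 comparisons with CTR share the same 4 control libraries.

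Proteins of the BCL2 family decide at the mitochondrial outer membrane whether a cell enters intrinsic apoptosis. BAX and BAK1 open the membrane and release cytochrome c, survival members hold them and the BH3-only proteins in check, and BH3-only proteins carry stress and growth factor signals by occupying the groove of the survival members or by activating BAX and BAK1. In epithelial cells EGFR signalling through ERK and AKT is known to restrain BCL2L11 (BIM) and to sustain MCL1, mostly by acting on protein stability and on FOXO factors, which mRNA counts do not measure. For MDA-MB-468 cells the paper cites reports that EGF slows proliferation and promotes apoptosis.

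What joins the 10 genes is the BH3 core, part of the short helix with which BH3-only proteins occupy the groove of the survival members. The coding sequence of the core was looked for in every member. The pattern was a leucine codon, 3 free codons, a glycine or alanine codon and an aspartate codon, and each of the 10 coding sequences held exactly 1 match. The sequences are shown because every member held a match. How often other proteins match this pattern was not counted. Each line gives the 18 bases of the core in capitals with 18 bases of coding sequence on each side, read 5′ to 3′ on the coding strand from GENCODE 29 transcripts. Coordinates are those of the core on GRCh38, and the exon is that of the principal transcript.
BCL2, chr18:63318361-63318378 (minus strand), exon 1 of 2: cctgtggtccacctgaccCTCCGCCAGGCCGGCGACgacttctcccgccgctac
BCL2L1, chr20:31721934-31721951 (minus strand), exon 2 of 3: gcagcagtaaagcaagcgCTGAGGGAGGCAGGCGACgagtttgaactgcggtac
MCL1, chr1:150578877-150578894 (minus strand), exon 1 of 3: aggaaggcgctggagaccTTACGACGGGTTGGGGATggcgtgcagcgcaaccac
BCL2L11, chr2:111150103-111150120 (plus strand), exon 4 of 5: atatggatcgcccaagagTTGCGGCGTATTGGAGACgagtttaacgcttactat
BMF, chr15:40104207-40104224 (minus strand), exon 4 of 5: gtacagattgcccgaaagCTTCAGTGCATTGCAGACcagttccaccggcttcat
BBC3, chr19:47226591-47226608 (minus strand), exon 3 of 4: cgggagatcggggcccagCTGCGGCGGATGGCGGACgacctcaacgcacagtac
PMAIP1, chr18:59902673-59902690 (plus strand), exon 2 of 2: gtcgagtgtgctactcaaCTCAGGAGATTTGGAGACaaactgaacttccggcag
BID, chr22:17739427-17739444 (minus strand), exon 4 of 6: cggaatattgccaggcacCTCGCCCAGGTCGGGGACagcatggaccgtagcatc
BAX, chr19:48955787-48955804 (plus strand), exon 3 of 6: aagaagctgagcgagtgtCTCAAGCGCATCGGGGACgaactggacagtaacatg
BAK1, chr6:33575399-33575416 (minus strand), exon 4 of 6: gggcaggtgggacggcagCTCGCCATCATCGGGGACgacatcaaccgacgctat
Each core lay within 1 coding exon. The search pattern itself fixed the leucine codon that opens the capitals and the aspartate codon that closes them. BMF and BBC3 carried the alanine codon before the aspartate where the other 8 carried a glycine codon.

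Depth was 15611961 to 25856953 counts per library. Levels below are CPM, the counts of a gene scaled to a common library size, after TMM, a correction of library sizes for composition. A change is a log2 fold change (log2FC) from edgeR's quasi-likelihood fit across 16522 genes in all 20 libraries, with its standard error (SE), and a gene was called changed when its Benjamini-Hochberg adjusted p was under 0.05. Epithelial markers were high, with EPCAM at 181 ± 11.4 CPM and EGFR at 3474 ± 103 CPM in CTR (SD, n = 4). All 5 epithelial markers were called higher at 12 h (log2FC 0.24 for EPCAM and 1.76 for EGFR). At 48 h EGFR was higher (0.69), EPCAM was lower (-0.20) and the other 3 did not pass. Of the 2 hormone receptors PGR had 0 counts in every library. ESR1 was at 5.03 ± 1.06 CPM in CTR and 2.33 ± 0.42 CPM at 12 h (log2FC -1.11). The 4 fibroblast markers summed to 5.08 to 7.90 CPM in CTR and 13.1 to 15.0 CPM at 72 h, nearly all of it COL1A1. The 3 leukocyte markers summed to at most 6.95 CPM and the 3 endothelial markers to at most 5.48 CPM in any library, and their part in the results was not tested. Mitochondrial transcripts took 9.41% of counts on average at 12 h, 10.9% in CTR and 15.0% at 72 h, and leaving them out changed no member's call. Replicate 1 of EGF 24 h stood apart from its group, with a score of 12.5 on the first principal component against 30.9 to 34.8 for the other 3, so results that turned on it are given with and without it.

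All 10 members changed against CTR at 12 h, 8 of them upward and 2 downward. Among all genes tested 69.4% were called at 12 h, 32.9% upward and 36.5% downward, so 10 called members is a count to be read against a broad response. At 24 h 8 members were called, 5 upward and 3 downward, against a background of 58.8% of all genes (29.2% upward and 29.6% downward). The 48 h count was 5 members, 1 upward and 4 downward, against 45.8% of all genes (24% upward and 21.8% downward). By 72 h 8 members were called again, 4 in each direction, against 61.6% of all genes (30.6% upward and 31% downward). In edgeR's test of a change beyond 1.5-fold (glmTreat), 6 members were called at 12 h against 34.8% of all genes, 2 at 24 h against 21%, 0 at 48 h against 11.6% and 2 at 72 h against 23.6%. The 6 at 12 h were BCL2L1, BCL2L11, BMF, PMAIP1, BAX and BAK1, the 2 at 24 h BCL2 and BMF, and the 2 at 72 h BCL2L1 and PMAIP1. Libraries were made from bulk RNA, so fewer cells with a transcript and less transcript per cell cannot be told apart.

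**Figure D1:**
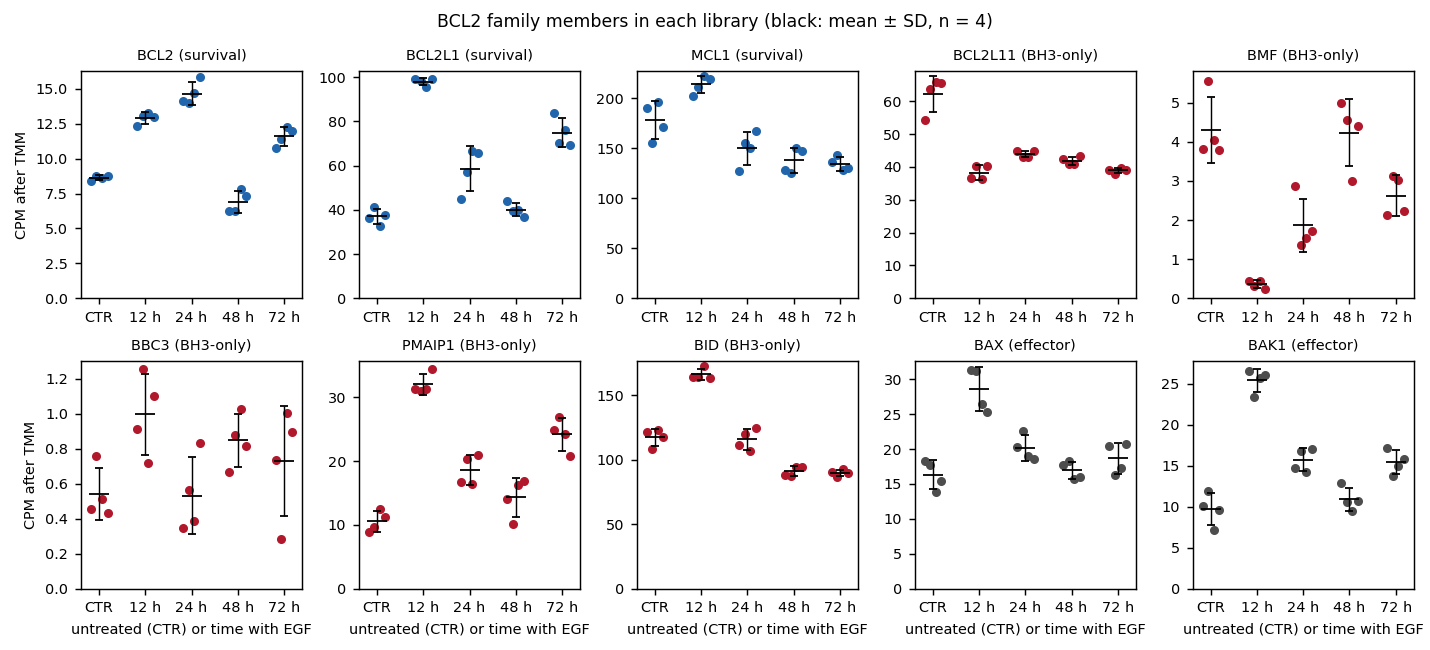
Level of each BCL2 family member (CPM after TMM, linear axis from 0) in the 20 libraries by group, with points for libraries and black marks for mean ± SD (n = 4). BCL2L1, PMAIP1 and BAK1 peak at 12 h, return toward CTR by 48 h and are higher again at 72 h, BMF is lowest at 12 h (0.366 CPM), and BCL2L11 sits below CTR at each of the 4 EGF times.

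Among the survival members, BCL2L1 showed the largest rise. It encodes BCL-XL, which binds both effectors and most BH3-only proteins. BCL2L1 (ENSG00000171552) measured 36.5, 41.2, 32.6 and 37.7 CPM in the CTR libraries and 99.0, 98.1, 95.6 and 99.2 CPM at 12 h. It then measured 44.9, 57.2, 66.7 and 65.9 CPM at 24 h, 43.8, 39.7, 40.2 and 36.8 CPM at 48 h and 83.8, 70.2, 75.9 and 69.5 CPM at 72 h. Every library at 12, 24 and 72 h lay above every CTR library, the 48 h libraries overlapped CTR, and the lowest 24 h value belonged to replicate 1. The log2FC was 1.40 ± 0.10 (SE, adjusted p = 1.13e-11) at 12 h, 0.66 ± 0.10 (adjusted p = 4.38e-06) at 24 h and 1.02 ± 0.10 (adjusted p = 4.72e-09) at 72 h. The 48 h difference of 0.12 (95% interval -0.091 to 0.32, adjusted p = 0.362) did not pass the test. All 6 pairs of EGF times differed for BCL2L1, so its order from the lowest was CTR and 48 h, which did not differ beyond their spread, then 24 h, 72 h and 12 h. A long noncoding gene, ABALON, overlaps 43.0% of its exon bases on the opposite strand and received at most 1 count in any library.

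BCL2, the founding survival gene, changed less and at a lower level. It (ENSG00000171791) measured 8.39, 8.79, 8.62 and 8.75 CPM in CTR, 12.3, 13.1, 13.3 and 13.0 CPM at 12 h and 14.1, 13.96, 14.7 and 15.8 CPM at 24 h. The 48 h libraries held 6.26, 6.26, 7.83 and 7.34 CPM, and the 72 h libraries 10.8, 11.4, 12.3 and 12.0 CPM. No EGF group overlapped CTR: the 12, 24 and 72 h libraries were all above it and the 48 h libraries all below it. BCL2 rose by 0.58 ± 0.087 log2 units at 12 h (adjusted p = 2.67e-06), by 0.76 ± 0.087 at 24 h (adjusted p = 6.52e-08) and by 0.42 ± 0.087 at 72 h (adjusted p = 0.000203), and its 48 h log2FC was -0.31 ± 0.090 (adjusted p = 0.0061). That fall did not pass in limma on the deposited normalized values (log2FC -0.33, adjusted p = 0.115). From 24 to 48 h BCL2 dropped by 1.08 log2 units (adjusted p = 1.01e-09), the largest step of any survival member between successive times. The 12 and 24 h levels did not differ beyond their spread (adjusted p = 0.0725), nor did 12 and 72 h (adjusted p = 0.114).

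MCL1, a short-lived survival protein that PMAIP1 binds and helps to degrade, had the highest CPM of the family. MCL1 (ENSG00000143384) measured 190.2, 156, 197 and 171 CPM in CTR and 203, 212, 222 and 219.7 CPM at 12 h. Its later values were 127, 155, 151 and 167 CPM at 24 h, 129, 125, 151 and 148 CPM at 48 h and 136, 143, 128 and 130.2 CPM at 72 h. The 12 h libraries lay above all CTR libraries, 3 of 4 lay below them at 24 h, and all 4 lay below them at 48 and at 72 h. The log2FC was -0.37 ± 0.084 at 48 h (adjusted p = 0.000862) and -0.41 ± 0.084 at 72 h (adjusted p = 0.000191). The 12 h rise of 0.26 ± 0.083 (adjusted p = 0.00753) depended on the scaling: it was -0.021 by library size alone, 0.10 by upper quartile (adjusted p = 0.211) and 0.15 in limma on the deposited normalized values (adjusted p = 0.213). At 24 h the log2FC of -0.25 ± 0.084 (adjusted p = 0.0134) no longer passed without CTR replicate 3 (-0.20, adjusted p = 0.0522) or without EGF 24 h replicate 1 (-0.17, adjusted p = 0.0747). MCL1 at 24, 48 and 72 h did not differ beyond the spread, with adjusted p of 0.242 for 48 against 24 h, 0.764 for 72 against 48 h and 0.139 for 72 against 24 h.

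**Figure D2:**
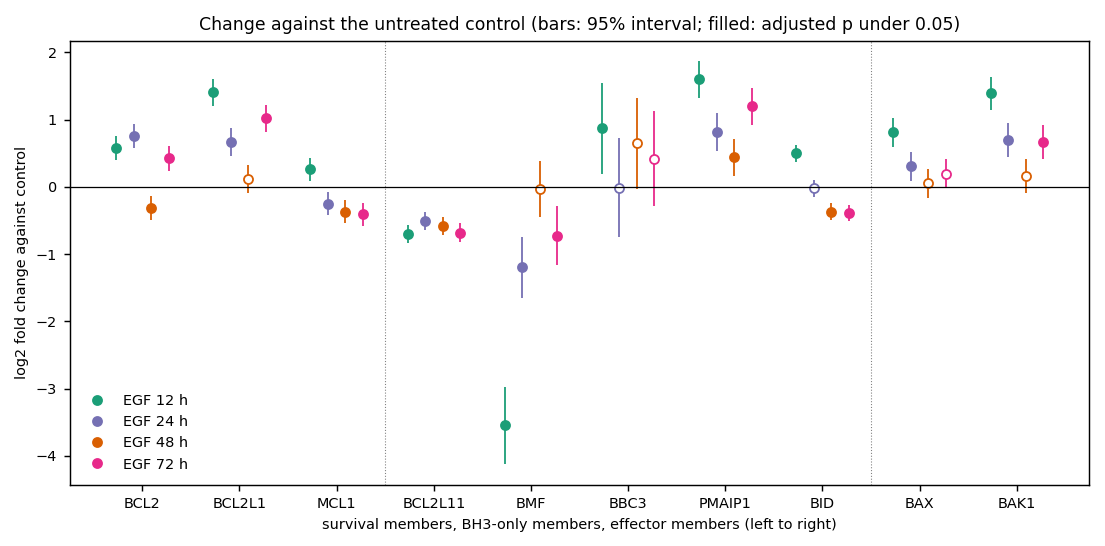
The log2 fold change of each member against CTR at 12, 24, 48 and 72 h (vertical axis, log2) from the edgeR fit, with 95% intervals as bars and filled points for adjusted p under 0.05. BMF at 12 h has the largest change (-3.55), BCL2L11 is negative at all 4 times, and BCL2L1 (1.40) and PMAIP1 (1.60) rise furthest among survival and BH3-only members.

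BH3-only members moved in opposite directions. BMF, a BH3-only protein known to respond to loss of attachment and of growth factors, had the largest change of the family. BMF (ENSG00000104081) measured 3.82, 5.55, 4.05 and 3.80 CPM in CTR, which fell to 0.455, 0.327, 0.442 and 0.239 CPM at 12 h, or 5 to 9 counts per library. Its later levels were 2.87, 1.36, 1.54 and 1.71 CPM at 24 h, 4.99, 4.55, 3.00 and 4.40 CPM at 48 h and 2.12, 3.13, 3.02 and 2.24 CPM at 72 h. BMF was below every CTR library in all 12 libraries of 12, 24 and 72 h, while the 48 h libraries overlapped CTR. The log2FC was -3.55 ± 0.28 at 12 h (adjusted p = 7.21e-11), -1.19 ± 0.22 at 24 h (adjusted p = 5.96e-05) and -0.72 ± 0.21 at 72 h (adjusted p = 0.00503). At 48 h it was -0.035 (95% interval -0.45 to 0.38, adjusted p = 0.903). Limma on the deposited normalized values gave larger falls at 24 h (-2.53) and 72 h (-1.17). BMF rose between 12 and 24 h by 2.36 ± 0.30 log2 units (adjusted p = 8.71e-07, or 0.0748 in limma on the deposited normalized values) and between 24 and 48 h by 1.16 ± 0.22 (adjusted p = 0.000136). From 48 to 72 h its log2FC was -0.69 (adjusted p = 0.0141), but only 2 of the 4 libraries of 72 h lay below all those of 48 h, and the call was lost without EGF 72 h replicate 1 (-0.58, adjusted p = 0.0666) and in limma on the deposited normalized values (-1.02, adjusted p = 0.0915). The antisense gene BMF-AS1, which overlaps 8.46% of its exon bases, had 0 counts in every library.

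BCL2L11, which encodes BIM, a binder of every survival member and a direct activator of the effectors, fell at each EGF time. It (ENSG00000153094) measured 54.2, 63.6, 65.9 and 65.4 CPM in CTR, 36.5, 40.2, 36.3 and 40.1 CPM at 12 h and 44.7, 43.0, 43.0 and 44.8 CPM at 24 h. At 48 h it measured 42.3, 41.0, 40.8 and 43.2 CPM, and at 72 h 39.2, 37.8, 39.6 and 39.1 CPM. All 16 EGF libraries lay below all 4 CTR libraries. The log2FC was -0.70 ± 0.065 at 12 h (adjusted p = 1.24e-09), -0.51 ± 0.065 at 24 h (adjusted p = 4.25e-07), -0.58 ± 0.065 at 48 h (adjusted p = 1.11e-07) and -0.68 ± 0.065 at 72 h (adjusted p = 3.36e-09). Limma on the deposited normalized values gave smaller changes, -0.47 (adjusted p = 0.00191), -0.12 (adjusted p = 0.442), -0.21 (adjusted p = 0.184) and -0.48 (adjusted p = 0.00214) in the same order, so the 24 and 48 h falls did not pass there. Among the EGF times 2 of 6 pairs differed for BCL2L11, 24 against 12 h (0.20 ± 0.066, adjusted p = 0.0145, lost with no filter on low counts or without replicate 1 or 3 of EGF 12 h, at adjusted p 0.176, 0.0544 and 0.0555) and 72 against 24 h (-0.17 ± 0.066, adjusted p = 0.0392). The opposite-strand gene MIR4435-2HG overlaps 10.9% of its exon bases and went the other way, from 49.7 ± 3.77 CPM in CTR to 179 ± 2.504 CPM at 12 h. Whether counting used strand is not given in the sources used here, so the part of such reads in the BCL2L11 counts was not tested.

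PMAIP1, known as NOXA and a selective binder of MCL1, moved upward at all 4 times. It (ENSG00000141682) measured 8.84, 9.67, 12.4 and 11.2 CPM in CTR and 31.3, 31.1, 31.3 and 34.4 CPM at 12 h. Its levels were 16.7, 20.3, 16.3 and 21.0 CPM at 24 h, 13.96, 10.1, 16.2 and 16.9 CPM at 48 h and 24.9, 26.9, 24.2 and 20.8 CPM at 72 h. All libraries of 12, 24 and 72 h exceeded the CTR libraries, and 3 of 4 did at 48 h. PMAIP1 rose by 1.60 ± 0.13 log2 units at 12 h (adjusted p = 1.59e-10), 0.82 ± 0.13 at 24 h (adjusted p = 1.39e-05) and 1.20 ± 0.13 at 72 h (adjusted p = 3.76e-08). The 48 h rise of 0.44 ± 0.13 (adjusted p = 0.00963) did not pass when only the 8 libraries compared were fitted (adjusted p = 0.0592). As for BCL2L1, all 6 pairs of EGF times differed, with 12 h the highest, then 72, 24 and 48 h. The least secure pair was 48 against 24 h (-0.38 ± 0.13, adjusted p = 0.0201), which did not pass by library size alone (-0.22, adjusted p = 0.174), without EGF 48 h replicate 2 (-0.24, adjusted p = 0.0897) or without EGF 24 h replicate 2 or 4 (adjusted p = 0.062 and 0.0789).

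BID, which caspase-8 cleaves to link death receptors with mitochondria, rose early and fell late. The CTR libraries held 121, 108, 123 and 118 CPM of BID (ENSG00000015475), the 12 h libraries 165, 164, 173 and 164 CPM and the 24 h libraries 112, 119.7, 107 and 125 CPM. At 48 h the values were 88.1, 87.6, 94.2 and 94.7 CPM and at 72 h 90.3, 86.7, 92.9 and 89.5 CPM. The 12 h libraries were all above CTR, those of 48 and 72 h all below it, and those of 24 h overlapped it. The log2FC was 0.50 ± 0.060 at 12 h (adjusted p = 9.68e-08), -0.020 (95% interval -0.15 to 0.10, adjusted p = 0.791) at 24 h, -0.37 ± 0.061 at 48 h (adjusted p = 2.74e-05) and -0.39 ± 0.061 at 72 h (adjusted p = 6.87e-06, or -0.22 in limma on the deposited normalized values). BBC3, known as PUMA and a binder of every survival member, had 5 to 27 counts per library. BBC3 (ENSG00000105327) measured 0.452, 0.757, 0.512 and 0.433 CPM in CTR and 0.909, 1.25, 0.718 and 1.10 CPM at 12 h, so 3 of 4 libraries exceeded all CTR libraries. The 12 h log2FC of 0.87 ± 0.33 (adjusted p = 0.0219) did not pass by library size alone (0.59, adjusted p = 0.114), by upper quartile (0.71, adjusted p = 0.0587), in limma on the deposited normalized values (0.79, adjusted p = 0.0669) or without any 1 of 4 libraries (adjusted p 0.0514 to 0.0703), which were CTR replicates 1 and 4 and EGF 12 h replicates 2 and 4. At the later times its mean was 0.531 to 0.847 CPM and no difference from CTR passed the test (0.111 was the lowest adjusted p). Its fall from 12 to 24 h (log2FC -0.88 ± 0.34, adjusted p = 0.0301) did not pass without any 1 of 4 libraries (adjusted p 0.0669 to 0.103), replicates 2 and 4 of EGF 12 h and 1 and 3 of EGF 24 h.

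The effectors rose together at 12 h. BAK1, which resides on the outer membrane, measured 10.05, 11.9, 7.21 and 9.61 CPM in CTR and 26.6, 23.4, 25.7 and 26.1 CPM at 12 h. BAK1 (ENSG00000030110) then measured 14.7, 16.8, 14.3 and 17.1 CPM at 24 h, 12.9, 10.5, 9.46 and 10.7 CPM at 48 h and 17.2, 13.7, 15.0 and 15.8 CPM at 72 h. Only the 48 h libraries overlapped CTR. The BAK1 log2FC was 1.39 ± 0.12 at 12 h (adjusted p = 3.3e-10), 0.70 ± 0.12 at 24 h (adjusted p = 2.95e-05) and 0.67 ± 0.12 at 72 h (adjusted p = 4.3e-05), and 0.16 (95% interval -0.094 to 0.41, adjusted p = 0.303) at 48 h. Its pseudogenes BAK1P1 and BAK1P2 had 2 and 0 counts over all libraries. BAX (ENSG00000087088), which on activation moves from the cytosol to the membrane, measured 18.3, 17.8, 13.8 and 15.4 CPM in CTR, 31.4, 31.2, 26.5 and 25.3 CPM at 12 h and 20.4, 22.7, 19.04 and 18.6 CPM at 24 h. The 48 h libraries held 17.8, 18.2, 15.8 and 16.0 CPM and the 72 h libraries 20.5, 16.3, 17.3 and 20.7 CPM. BAX lay above every CTR library at 12 and 24 h and overlapped CTR at 48 and 72 h. The BAX log2FC was 0.81 ± 0.10 at 12 h (adjusted p = 2.7e-07), while 0.31 ± 0.11 at 24 h (adjusted p = 0.0158) did not pass by library size alone (0.16, adjusted p = 0.191), in limma on the deposited normalized values (0.18, adjusted p = 0.193), without CTR replicate 3 (0.24, adjusted p = 0.0631) or without EGF 24 h replicate 2 (0.25, adjusted p = 0.066). At 48 and 72 h the log2FC was 0.054 (adjusted p = 0.706) and 0.20 (adjusted p = 0.109).

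Survival and BH3-only members were then set side by side. At 12 h all 3 survival members and 3 of 5 BH3-only members were higher, with medians of log2FC of 0.58 and 0.50 against -0.054 for all genes. At 24 h the survival median was 0.66 (2 higher, 1 lower) and the BH3-only median -0.020 (1 higher, 2 lower), and at 72 h they were 0.42 (2 higher, 1 lower) and -0.39 (1 higher, 3 lower). At 48 h the survival median was -0.31 (0 higher, 2 lower) and the BH3-only median -0.035 (1 higher, 2 lower). Medians over 3 and 5 genes conceal members that moved apart, such as BMF and PMAIP1 at 12 h, and no test was made over a class.

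Within each library the mean log2(CPM + 0.5) of the survival members minus that of the BH3-only members was 1.58 ± 0.11 in CTR (SD, n = 4). The 12 h libraries gave 2.43 ± 0.046 and those of 24 h 2.11 ± 0.18, followed by 1.43 ± 0.072 after 48 h and 1.97 ± 0.075 after 72 h. The 12, 24 and 72 h libraries all exceeded the CTR maximum of 1.72, and the 48 h libraries, from 1.37 to 1.53, overlapped CTR. At 12 h this difference was 0.85 above CTR, while the median log2FC was 0.58 for survival and 0.50 for BH3-only members. The survival mean moved from 5.30 in CTR to 6.04 at 12 h, and the BH3-only mean stayed between 3.56 and 3.72 over the 5 groups. That BH3-only mean joined members that moved apart. At 12 h the log2FC was -3.55 for BMF, at 5 to 9 counts per library, and -0.70 for BCL2L11. For PMAIP1 it was 1.60, for BBC3 0.87 and for BID 0.50. BMF went from a mean of 4.30 CPM in CTR to 0.366 CPM at 12 h, where the mean of all 5 BH3-only members was 0.11 below CTR. The class difference without BMF was not calculated, so the part of BMF alone in it was not tested. Of the pairs of known partners only BCL2L1 with BCL2L11 and MCL1 with PMAIP1 were calculated, and these differed. BCL2L1 minus BCL2L11 was -0.74 ± 0.20 in CTR and 1.35 ± 0.073 at 12 h. It stood at 0.40 ± 0.28 after 24 h, -0.060 ± 0.12 after 48 h and 0.93 ± 0.11 after 72 h. Every EGF library exceeded every CTR library in that difference. At 48 h BCL2L1 alone did not differ from CTR in the edgeR test (adjusted p = 0.362), and the BCL2L11 fall did not pass in limma on the deposited normalized values. MCL1 minus PMAIP1 went the other way, from 4.02 ± 0.22 in CTR to 2.72 ± 0.069 at 12 h and 2.46 ± 0.11 at 72 h, with 2.98 ± 0.13 and 3.25 ± 0.21 at 24 and 48 h. Every EGF library lay below every CTR library in this difference. BCL2L11 also binds MCL1, and that pair was not calculated. The log2FC of MCL1 was 0.26 at 12 h and -0.41 at 72 h, and that of BCL2L11 was -0.70 and -0.68. These within-library differences are descriptions of mRNA and not of protein.

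**Figure D3:**
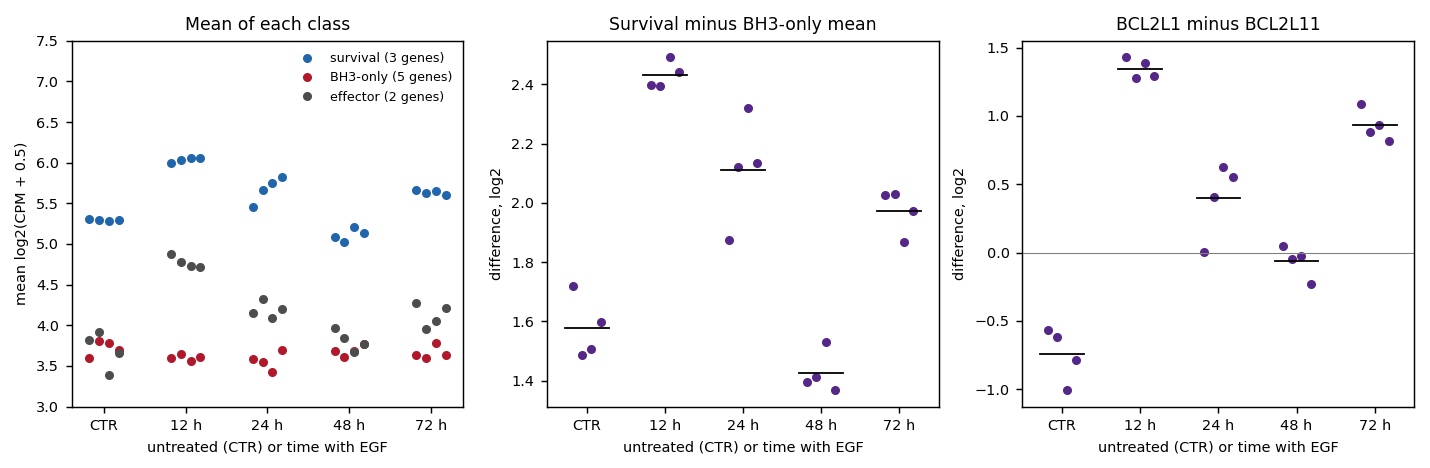
Left, mean log2(CPM + 0.5) of the survival, BH3-only and effector members in each library. Middle and right, the survival mean minus the BH3-only mean and BCL2L1 minus BCL2L11 (log2), with points for libraries and lines for group means (n = 4). The middle panel is above the CTR libraries at 12, 24 and 72 h and overlaps them at 48 h, and the right panel moves from -0.74 in CTR to 1.35 at 12 h. The BH3-only mean includes BMF, which held 5 to 9 counts per library at 12 h.

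Between EGF times, which do not involve the control libraries, 9 members differed between 12 and 24 h (7 lower and 2 higher at 24 h) against 53.7% of all genes. From 24 to 48 h 6 members changed, 5 of them downward, against 50.2% of all genes, and the exception was BMF. From 48 to 72 h 5 members changed, 4 upward, against 35.7% of all genes: BCL2 (0.74 ± 0.089), BCL2L1 (0.90 ± 0.099), PMAIP1 (0.76 ± 0.13) and BAK1 (0.51 ± 0.12) rose and BMF fell. Over longer steps 8 members differed between 12 and 48 h (70.3% of all genes), 7 between 12 and 72 h (67.6%) and 5 between 24 and 72 h (40.2%). With 10 members each member is 10 percentage points, and the counts for 48 h against CTR and for 48 against 12, 48 against 24, 72 against 12 and 72 against 24 h all lay within 1 member of the background. Beyond 1.5-fold, 1 member differed between 12 and 24 h (13.3% of all genes), 2 between 24 and 48 h (11%) and 1 between 48 and 72 h (5.34%).

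Compared per kilobase of merged exons, the CTR levels ran from MCL1 (40.8 CPM per kb) and BID (26.4) through BCL2L1 (11.2), BCL2L11 (9.35), BAX (6.31), PMAIP1 (4.72) and BAK1 (4.39) to BMF (0.790), BCL2 (0.734) and BBC3 (0.169). This order depended on the length used. Divided by the principal transcript alone, BID (47.1), MCL1 (45.4) and BCL2L11 (40.9) were the highest and BBC3 (0.293) remained the lowest.

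The genes most alike in pattern were sought for the 5 members whose highest and lowest group means differed at least 2-fold, among 10787 genes over the 20 libraries, which share the 5 group means. BCL2L1 went with PRSS22 (Pearson r = 0.981) and ST3GAL1 (0.980), PMAIP1 with CLDND1 (0.979) and KCNK1 (0.974), and BAK1 with TNFAIP1 and TICAM1 (both 0.974). BMF followed the transcriptional repressor BCL6 (0.976) and the mitochondrial deubiquitinase USP30 (0.974). BCL2 followed SLC1A1 (0.960) and ATP1B3 (0.951).

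Promoters were read from RefSeq (GRCh38.p14), which gave 15 entries for 9 members. MCL1 had no entry, so its promoter was not searched. Windows of the 250 bases before the start were searched on both strands for TGACTCA (AP-1), TGACGTCA (CRE), TGTTTAC (FOXO), CACGTG (E-box) and GGGCGG (GC box). Of these 9 members BCL2L11 alone had a FOXO match, 1 in its window, which 2.979% of all 35116 promoters share, and it had 3 GC boxes, a motif in 42.639% of promoters. PMAIP1 had 4 GC boxes, the 5 BID entries 0 to 4, BAK1 2, and BAX and 1 BMF entry 1 each. BAX held 4 E-boxes (6.345% of promoters hold at least 1), BBC3 and 2 of the BID entries held 1 each, BBC3 had 1 AP-1 match (4.203%), and no member entry held the CRE (1.646%). The 250 bases before the start are shown for BCL2L11 and BMF, both members that fell at 12 h, with motif matches in capitals.
BCL2L11, chr2:111120664-111120913 (plus strand): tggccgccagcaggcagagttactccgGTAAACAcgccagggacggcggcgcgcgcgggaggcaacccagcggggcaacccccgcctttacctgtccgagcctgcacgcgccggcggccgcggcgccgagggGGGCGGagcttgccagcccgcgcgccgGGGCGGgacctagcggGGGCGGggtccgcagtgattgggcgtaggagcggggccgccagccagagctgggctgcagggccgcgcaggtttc
BMF, chr15:40108880-40109129 (minus strand): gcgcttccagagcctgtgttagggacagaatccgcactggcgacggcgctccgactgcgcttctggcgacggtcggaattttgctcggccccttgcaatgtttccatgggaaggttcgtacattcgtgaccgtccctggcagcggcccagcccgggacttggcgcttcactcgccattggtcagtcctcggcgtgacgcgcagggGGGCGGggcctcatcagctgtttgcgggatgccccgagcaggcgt
The capitals in the BCL2L11 sequence are the FOXO match, read on the opposite strand, followed by the GC boxes, and the 1 match of BMF is a GC box. A match is a string of letters and not evidence of binding.

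Other genes of the pathway were counted from lists chosen with results of these data known, and each list is read against the shares of all genes given above. Of 5 other BH3-only genes, 2 rose and 0 fell at 12 h, and 1 rose and 2 fell at 72 h. BIK, an endoplasmic reticulum BH3-only protein, went from 6.78 ± 1.05 CPM in CTR to 27.4 ± 2.08 CPM at 12 h (log2FC 2.01 ± 0.13, adjusted p = 3.18e-12) and was back at 8.10 ± 1.28 CPM by 24 h. HRK, a small BH3-only protein, rose at 24 h by 1.33 ± 0.20 log2 units (adjusted p = 3.62e-06). BNIP3L, a mitophagy receptor, fell at 48 h by 0.43 log2 units (adjusted p = 0.000417). Of the other survival genes, 2 of 3 could be tested, and BCL2L2, which encodes BCL-W, rose at 72 h by 0.32 ± 0.081 (adjusted p = 0.00144) and was the only call of that list against CTR.

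Downstream of the membrane, 6 of 10 genes rose and 1 fell at 12 h, and 3 rose and 0 fell at 72 h. BIRC3, an inhibitor of apoptosis and ubiquitin ligase, went from 10.5 ± 1.67 CPM in CTR to 52.5 ± 2.15 CPM at 12 h (log2FC 2.32 ± 0.12, adjusted p = 5.7e-14) and stood at 42.6 ± 1.86 CPM at 72 h. Its relative BIRC2 rose at 12 h by 0.93 ± 0.10 (adjusted p = 3.33e-08), and CASP9, the initiator caspase of the apoptosome, fell by 0.70 log2 units (adjusted p = 2.44e-05). Of 7 partners and turnover factors, 3 rose and 2 fell at 12 h. VDAC2, a channel that recruits BAK1 to mitochondria, rose by 0.96 ± 0.070 at 12 h (adjusted p = 1.69e-11), and at 24 h HUWE1, a ubiquitin ligase of MCL1, and USP9X, which removes ubiquitin from MCL1, rose by 0.61 ± 0.090 and 0.59 ± 0.076.

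**Figure D4:**
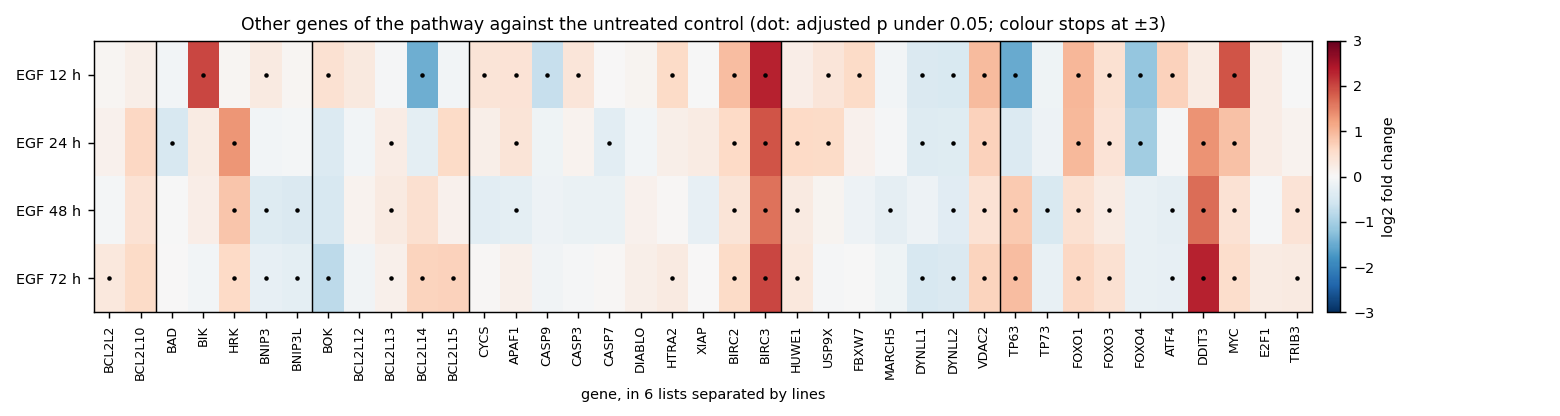
Log2 fold change against CTR (colour, limited to ±3) of the genes shown from 6 lists around the family (columns) at the 4 EGF times (lines of the plot), with a dot for adjusted p under 0.05. BIRC3 is higher at all 4 times and BIK at 12 h, and DDIT3 is highest at 72 h (2.30).

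Of 10 transcription factors known to act on family promoters, 4 rose and 2 fell at 12 h, and 6 rose and 1 fell at 72 h. DDIT3, the CHOP factor of the stress response, climbed from 3.67 ± 0.51 CPM in CTR to 18.1 ± 1.86 CPM at 72 h (log2FC 2.30 ± 0.12, adjusted p = 6.35e-14). MYC rose at 12 h by 1.89 ± 0.10 log2 units (adjusted p = 8.66e-14), whereas TP63, a factor of basal epithelium, had a 12 h log2FC of -1.52 ± 0.32 (adjusted p = 0.000181) from 10 to 27 counts per CTR library.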

How the data were processed

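RNA from MDA-MB-468 cells (CTR and EGF for 12, 24, 48 and 72 h, 4 biological replicates each) was made into Lexogen Corall mRNA libraries, and the submitters' processing notes name hg38 and DESeq2. The authors deposited 10 tables that hold whole-number counts per gene, identical across tables, with 60271 genes and 20 libraries. The deposited normalized values, named here a score, are on the scale of counts, and the ratio of each to its count was not constant within a library. The aligner, the counter, and the use of strand or molecular identifiers are not given in the sources used here. Columns of the authors' own fold changes and p-values were not used.

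Counts were analysed with edgeR 4.0.16 (R 4.3.3): filterByExpr left 16522 genes, TMM scaling, a robust quasi-likelihood fit with group as the only term over all 20 libraries, a prior count of 0.125, Benjamini-Hochberg adjustment over all genes tested, threshold 0.05. SE was the log2 fold change divided by the root of F. The script was tested on simulated counts. The 10 members and all lists were chosen with earlier results of these data known. Of the other lists, at most 3 genes each were named, those with the largest change among called genes of at least 1 CPM whose libraries did not overlap CTR. Alike genes had a mean of at least 5 CPM. Depth was 15611961 to 25856953 counts, and p-values measure the spread among these cultures of 1 line. The 30 within-group pairs of libraries differed by 3.78 to 65.4 times the sampling variance, so none was a duplicate. Alternatives were library size, upper quartile and DESeq2 size factors, no filter, a minimum of 10 counts in every library, the 8 libraries compared alone, mitochondrial genes left out, a replicate block, DESeq2 1.42.0 Wald tests, glmTreat at 1.5-fold, each replicate left out, and, chosen after seeing the data, limma 3.58.1 on log2 of the deposited normalized values plus 1. GENCODE 29 gave exons and coding sequence. Results that need 1 withheld item are not reported here.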

Additional observations from a re-analysis of the deposited data

Results flagged for a closer look

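In 3 of 50 member groups 1 library stood away from the other 3 by Dixon's criterion, where chance gives about 2.5. BMF measured 5.55 CPM in CTR replicate 2, with its nearest neighbour at 4.05 CPM. PMAIP1 measured 34.4 CPM in replicate 4 of EGF 12 h against 31.3 CPM for the nearest. BID measured 173 CPM in replicate 3 of EGF 12 h against 165 CPM.

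Responses also differed among EGF times by the test of the difference itself. Of the 6 pairs of times, BCL2L1 and PMAIP1 differed in 6, BMF, BID and BAK1 in 5, BCL2 in 4, MCL1 and BAX in 3, BCL2L11 in 2 and BBC3 in 1.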

How the results depend on the processing

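Testing for a change beyond 1.5-fold left 6, 2, 0 and 2 members against CTR at 12, 24, 48 and 72 h. The shares of all genes were 34.8%, 21%, 11.6% and 23.6%. For 24 against 12, 48 against 24 and 72 against 48 h it left 1, 2 and 1 members, against 13.3%, 11% and 5.34% of all genes. Limma on the deposited normalized values called 3 members at 48 h, split members at 12 h into 6 higher and 2 lower, and gave survival minus BH3-only medians of log2FC of -0.051 at 12 h (0.077 in the fit reported), -0.18 at 48 h (-0.28) and 0.70 at 72 h (0.81). Without 1 library these medians ranged from 0.049 to 0.12 at 12 h, 0.58 to 0.93 at 24 h and -0.49 to -0.15 at 48 h. Member counts without 1 library were 9 to 10 at 12 h, 6 to 8 at 24 h, 5 at 48 h and 8 to 9 at 72 h. By library size alone the median of all genes at 12 h was -0.34 instead of -0.054, 30.2% instead of 47.4% of all called genes were higher, and members split 6 higher and 2 lower instead of 8 and 2. The upper quartile gave -0.22, 37.2% and 6 and 2. At 24 h library size alone gave -0.15 instead of -0.0071 and 36.3% instead of 49.6% higher, with members at 4 and 4. The upper quartile put members at 4 higher and 3 lower at 24 h, instead of 5 and 3. Between EGF times, library size alone put 68.6% of called genes higher for 24 against 12 h, 71.8% for 48 against 24 h and 33.8% for 72 against 48 h, where TMM gave 51.9%, 51.5% and 50%, and the upper quartile gave 66.1% for 24 against 12 h. For 24 against 12 h, library size alone and the upper quartile each put members at 3 higher and 6 lower, instead of 2 and 7. Directions turned for differences near 0. Library size alone gave 0.084 for BCL2L11 and 0.036 for MCL1 at 48 against 24 h and -0.021 for MCL1 at 12 h. Limma gave 0.10 for BID at 24 h, 0.065 for BID and 0.011 for MCL1 at 72 against 48 h, where DESeq2 size factors gave 0.00020 for BID. Leaving out each library in turn moved BBC3 from -0.33 to 0.20, BID from -0.058 to 0.019 at 24 h and BMF from -0.12 to 0.11 at 48 h, BBC3 from -0.41 to 0.027 and MCL1 from -0.082 to 0.0062 at 72 against 48 h, and BAX at 48 h as low as -0.019. The causes were not tested. With a replicate block the counts of called members were 10, 8, 5 and 8 against CTR and 9, 7 and 5 between successive times, and no member's call was lost. Replicate numbers gave no clear pairing of the samples, though a weak one is not excluded. The 40 same-number pairs had r from -0.239 to 0.348 (median 0.0092). The 120 other pairs had r from -0.322 to 0.259 (median -0.00422). Of 20 libraries, 8 correlated best with their own number. Depth limits BBC3 and, at 12 h, BMF, which held 5 to 27 and 5 to 9 counts per library.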
